A study of Mus musculus with 12 samples.

Results

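The classical type II cadherins encoded on mouse chromosome 15 that were examined are Cdh6, Cdh9, Cdh10, Cdh12 and Cdh18. They were taken by gene symbol through their Ensembl identifiers and are 5 of the 56923 genes in the table. The RNA came from sections of wild-type mouse brain that were held for 5 hours in artificial cerebrospinal fluid (aCSF) containing L-fucose, a deoxy sugar found on glycoproteins and glycolipids, or for 5 hours in aCSF without it. There were 6 L-fucose and 6 aCSF libraries, which are identified by group and number. The sample titles use the same WT numbers in both groups and do not say whether equal numbers mean the same animal. The labels give no strain, age, sex or brain region and do not say whether the libraries of a group came from separate animals, so p-values measure the spread between these libraries, which may be technical.

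Cadherins are calcium-dependent adhesion proteins that span the membrane and bind cadherins on the neighbouring cell through their outermost repeat. In type II cadherins that repeat begins with a pair of tryptophans that dock into the partner molecule, and inside the cell catenins tie the tail to actin. Neurons carry different sets of type II cadherins, which is one way in which matching partners in a circuit are told apart. In binding studies Cdh6, Cdh9 and Cdh10 form a group that bind one another, and Cdh12 and Cdh18 fall in a different group. Cdh9 is known for synapses between dentate granule cells and CA3 neurons of the hippocampus, Cdh6 for the targeting of retinal axons, and Cdh10 for brain microvessels as well as neurons.

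The coding stretch that holds the tryptophan pair shows how closely the family members are related. Each line gives 60 bases of the coding strand, from the GENCODE M21 transcripts on GRCm38, and the capitals mark the 2 tryptophan codons.
Cdh6: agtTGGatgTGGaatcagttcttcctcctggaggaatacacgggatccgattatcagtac
Cdh9: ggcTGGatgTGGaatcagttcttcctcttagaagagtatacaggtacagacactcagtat
Cdh10: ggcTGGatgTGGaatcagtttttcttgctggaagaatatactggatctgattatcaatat
Cdh12: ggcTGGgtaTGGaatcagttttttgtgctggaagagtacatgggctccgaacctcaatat
Cdh18: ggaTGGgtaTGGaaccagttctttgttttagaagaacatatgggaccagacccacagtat
These exonic stretches lie at chr15:13091659-13091718 on the minus strand for Cdh6 and, on the plus strand, at chr15:16778257-16778316 for Cdh9, chr15:18899751-18899810 for Cdh10, chr15:21237843-21237902 for Cdh12 and chr15:23173861-23173920 for Cdh18.

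All 5 members shared 34 of the 60 bases. At 4 positions Cdh6, Cdh9 and Cdh10 had one base and Cdh12 and Cdh18 another, written with the base of the Cdh6, Cdh9 and Cdh10 sequences first and counted from 1 at the 5′ end: A7G, G9A, C24T and C41T. The first pair of these falls in the codon between the tryptophan codons. Only positions with this split were sought, and the stretch as a whole did not sort the pairs by these sets. Across the sets, Cdh10 and Cdh12 shared 47 of the 60 bases, Cdh9 and Cdh18 45 and Cdh6 and Cdh18 39. Within the sets, Cdh6 and Cdh10 shared 49, Cdh9 and Cdh10 46, Cdh6 and Cdh9 45 and Cdh12 and Cdh18 45. Over the whole coding sequence, of 2367 to 2385 bases, Cdh6 and Cdh10 were 71.8% identical, Cdh6 and Cdh9 70.8% and Cdh9 and Cdh10 70.3%. Cdh12 and Cdh18 were 64.8% identical, and the pairs across these sets ranged between 63.9% for Cdh6 and Cdh18 and 67.2% for Cdh10 and Cdh12.

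Cdh6 (ENSMUSG00000039385) spans 13028701 to 13173675 on the minus strand of chromosome 15 in GRCm38. The other members are on the plus strand, with Cdh9 (ENSMUSG00000025370) from 16728756 to 16857094, Cdh10 (ENSMUSG00000022321) from 18818947 to 19014236, Cdh12 (ENSMUSG00000040452) from 20449265 to 21589533 and Cdh18 (ENSMUSG00000040420) from 22549022 to 23474418. Cdh12 and Cdh18 are spread over 1140 and 925 kb, of which exons make up 0.553% and 0.492%, while Cdh6, Cdh9 and Cdh10 span 145, 128 and 195 kb. Exons were shared with another gene in Cdh9, where the antisense gene Gm49127 covers 6.33% of the exonic bases, and in Cdh12, where Gm49685 covers 3.14%. Gm49127 was at 0 in every library, and Gm49685 had a mean of 4.75 and at most 12.14 normalized reads. The strand setting of the counting is not given in the sources used here. Within the shared 6.33% of exonic bases, reads of Cdh9 and of its antisense partner therefore cannot be told apart. Gm49685 lies on the same strand as Cdh12, so within the shared 3.14% strand cannot tell their reads apart under any setting.

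A row's name does not always say what it counted in this table, so the cadherin rows were checked by position. Row levels were correlated with coverage by exons of protein-coding genes after moving the row positions along the genome, and rows were called in register where levels followed exons best without such a displacement. Of 2527 windows of rows across the genome, 93.3% followed exons better when displaced. The 62 rows between positions 13028701 and 23490498 of chromosome 15 had their highest correlation, 0.902, at no displacement, and the highest beyond 10 kb either way was 0.831. Every protein-coding row is fully covered at no displacement, so the 0.902 would not change if the cadherins exchanged levels. All 5 cadherins lay in a stretch in register that ran from 8.92 to 37.79 Mb. Between those positions the cadherins stood nearly alone, since 39 of the 57 other rows were at 0 in all 12 libraries and the highest mean among them was 5.99 normalized reads. Acot10, a single-exon gene within Cdh12, was the sole other protein-coding gene between the same positions, with a mean of 3.43.

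**Figure D1:**
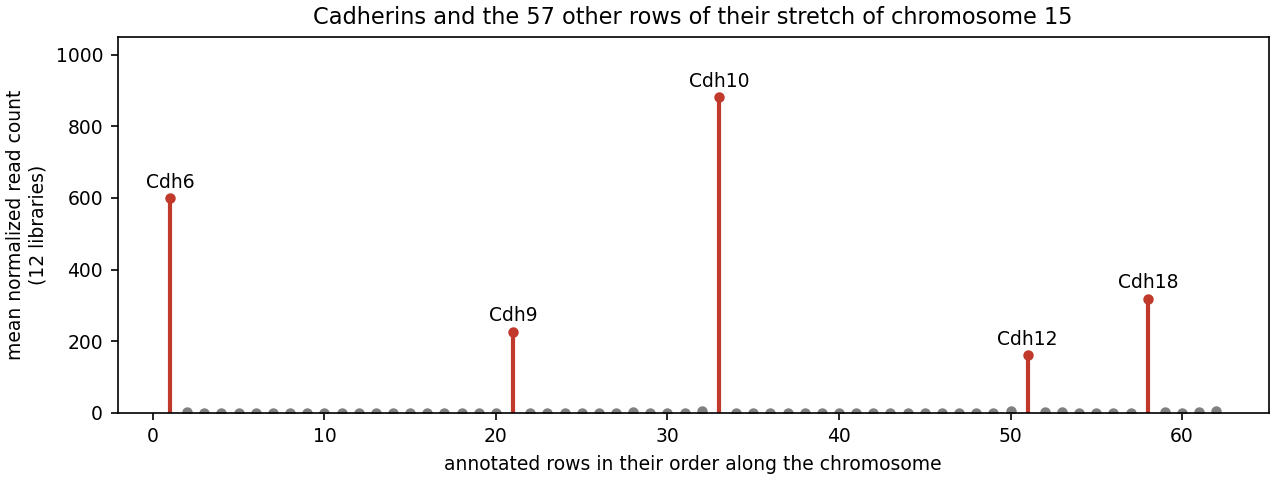
Mean normalized read count over the 12 libraries for each of the 62 annotated rows between positions 13028701 and 23490498 of chromosome 15, in their order along the chromosome. The 5 cadherins, in red, have means between 161.5 and 880.8, and no other row has a mean above 5.99.

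Values are normalized read counts, reads divided by 1 size factor per library. Library totals were 9931621 to 18563078 reads in L-fucose and 9191687 to 11519853 in aCSF. Neuronal markers in register were high in every library, with Basp1 and Gabbr2 summing to between 32280 and 36343 in L-fucose and between 32248 and 35776 in aCSF. The libraries aCSF 5 and aCSF 6 differed from the rest, with mitochondrial shares of 41.9% and 44.8% against 33.8% to 40.5% in L-fucose and at most 36.4% in the other aCSF libraries. They also had 14340 and 14856 rows above 0, against 16514 or more elsewhere. The fold changes of the cadherins, their correlations and the genes most like them are given with and without these libraries. In bulk tissue, fewer cells of a type and less RNA per cell cannot be told apart in any of the values that follow.

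Cdh10 had the highest counts and was the steadiest member. In L-fucose its lowest, median and highest values were 725.9, 890.0 and 958.8, and in aCSF they were 815.6, 886.6 and 953.6. The ranges overlapped almost fully, and L-fucose 4 was the low library. Its coefficient of variation over 12 libraries was 7.21%, of which counting alone would give 3.30%, and 3.72% of the 457 tested rows in register had a smaller spread on the log2 scale.

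Cdh6 came next in counts. Its lowest, median and highest values were 483.9, 556.7 and 697.5 in L-fucose and 548.0, 604.3 and 771.8 in aCSF. The groups overlapped, with L-fucose 1 the highest of its group and aCSF 5 the highest of all.

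Cdh18 and Cdh12 differed most in how aCSF 5 and 6 stood. Cdh18 had 268.7, 342.7 and 388.6 as its lowest, median and highest values in L-fucose and 167.6, 318.9 and 415.0 in aCSF. The lowest of the 12 libraries were aCSF 6 at 167.6 and aCSF 5 at 215.4, while the other aCSF libraries lay between 284.5 and 415.0. For Cdh12 the values were 99.0, 175.0 and 193.2 in L-fucose and 103.6, 136.4 and 268.1 in aCSF. Here aCSF 5 was the highest of all and aCSF 6, at 192.1, was among the high libraries. Without these libraries the coefficient of variation of Cdh18 was 13.6% in place of 23.1% and that of Cdh12 was 23.3% in place of 29.4%.

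Cdh9, the hippocampal mossy fibre cadherin, had 172.7, 193.0 and 274.6 as its lowest, median and highest values in L-fucose and 168.9, 227.8 and 375.8 in aCSF. aCSF 5 was far above all others, at 375.8, while aCSF 6 was the lowest library, so these libraries did not deviate together. With between 84 and 277 reads per library, Cdh12 was the most thinly covered member, and its counting error was 7.72% against an observed variation of 29.4%.

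**Figure D2:**
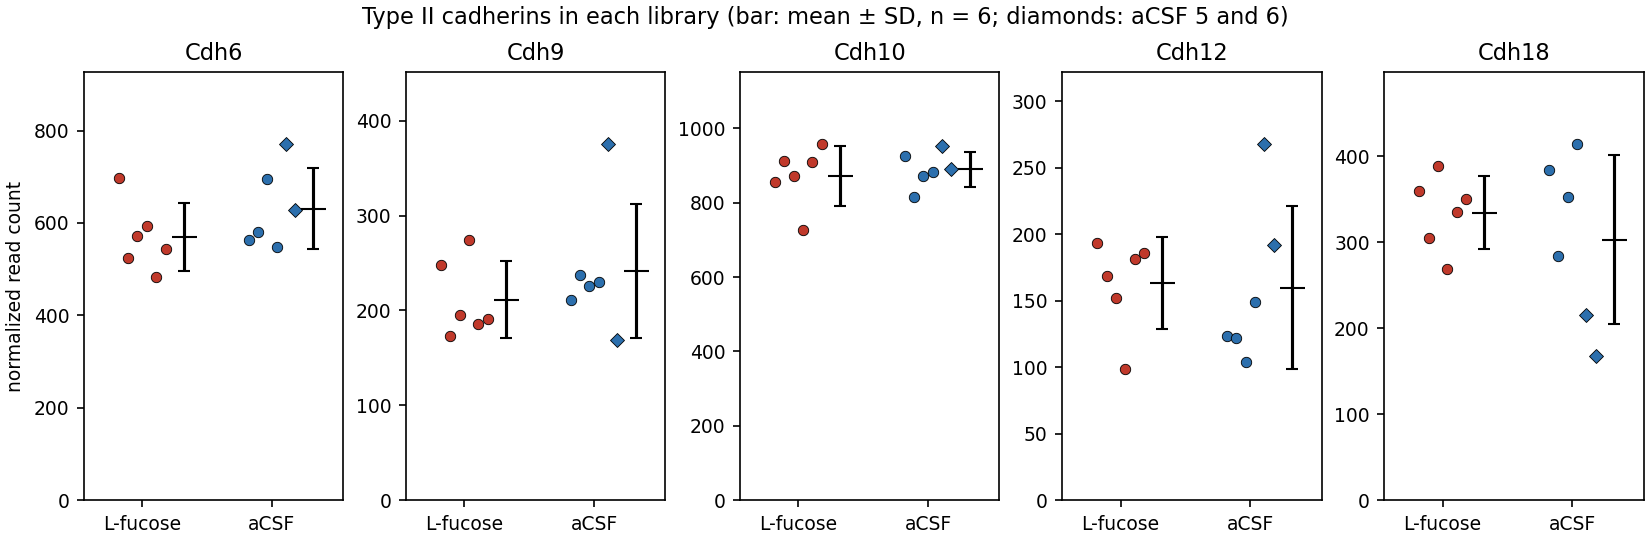
Normalized read count of each cadherin in every library, L-fucose in red and aCSF in blue, with the mean and SD of each group of 6 and aCSF 5 and 6 drawn as diamonds. The groups overlap for all 5 genes, and the diamonds hold the highest Cdh6, Cdh9 and Cdh12 values and the lowest Cdh18 values.

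Counts of different genes were compared per kb of length. Per kb of all annotated exons, averaged over 12 libraries, Cdh10 had 87.6 ± 6.32 normalized reads (SD), Cdh18 70.0 ± 16.2, Cdh6 66.5 ± 9.24, Cdh9 63.9 ± 16.1 and Cdh12 25.6 ± 7.54. Neighbours in this order were compared within libraries by an exact two-sided sign-flip permutation test of the log2 ratio, adjusted over 4 pairs. Cdh10 was above Cdh18 by 0.36 ± 0.39 on the log2 scale, in 11 of 12 libraries (exact permutation p = 0.00146, adjusted 0.00293). Cdh9 was above Cdh12 by 1.34 ± 0.50, in 12 of 12 libraries (exact permutation p = 0.000488, the smallest that 12 libraries allow, adjusted 0.00195). Cdh18 and Cdh6 differed by 0.04 ± 0.49 (adjusted exact permutation p = 0.757) and Cdh6 and Cdh9 by 0.08 ± 0.24 (adjusted 0.355), so these neighbours did not differ beyond their spread over the 12 libraries. Cdh18 was above Cdh6 by 0.23 without aCSF 5 and 6 (adjusted exact permutation p = 0.0339).

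The middle of this order depended on the length used. The union of exons is 10.05 kb for Cdh10 and its longest transcript 3.77 kb, whereas for Cdh9 both are 3.54 kb. The longest protein-coding transcript of Cdh10 has 3407 bases, so its longest transcript is not a protein-coding one, unlike those of the other members. Per kb of the longest transcript, Cdh10 had 234.0 ± 16.9, Cdh18 116.2 ± 26.9, Cdh6 73.5 ± 10.2, Cdh9 63.9 ± 16.1 and Cdh12 26.9 ± 7.92 normalized reads. Per kb of coding sequence, a length chosen after the data were seen and blind to untranslated exons, Cdh6 came after Cdh10 at 252.8 ± 35.2 and Cdh18 after Cdh6 at 134.4 ± 31.1. With that length Cdh6 was above Cdh18 in 12 of 12 libraries, with Cdh18 minus Cdh6 at -0.94 on the log2 scale (adjusted exact permutation p = 0.000651). Cdh10 was the highest and Cdh12 the lowest member with all 3 lengths. The annotation release the authors counted with is not given in the sources used here, so the counted length is not known.

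**Figure D3:**
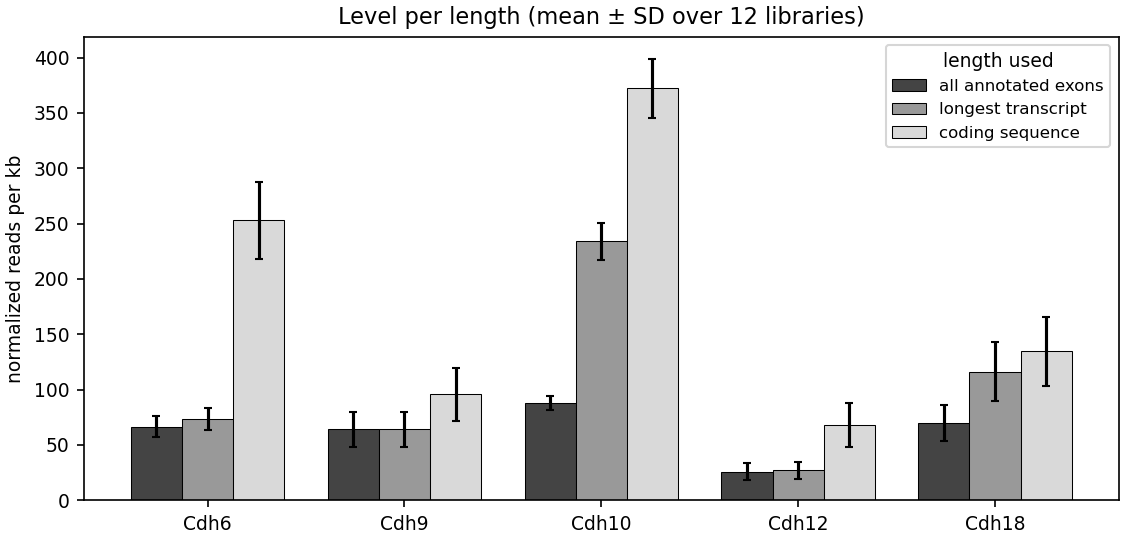
Normalized reads per kb for each cadherin, mean and SD over the 12 libraries, with the length taken as all annotated exons, the longest transcript or the coding sequence. Cdh10 is highest and Cdh12 lowest with each length, while Cdh6 is above Cdh18 only with the coding sequence.

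Within libraries, the ratios of Cdh12, Cdh10 and Cdh6 counts to those of Cdh18 separated aCSF 5 and 6 from the rest. The Cdh12 to Cdh18 ratio was 0.37 to 0.55 in L-fucose and 0.29 to 0.43 in aCSF 1 to 4, but 1.24 in aCSF 5 and 1.15 in aCSF 6. The Cdh10 to Cdh18 ratio was 2.24 to 2.99 in L-fucose and 2.13 to 2.87 in aCSF 1 to 4, against 4.43 and 5.31 in aCSF 5 and 6. The Cdh6 to Cdh18 ratio was 1.44 to 2.21 in L-fucose and 1.32 to 2.04 in aCSF 1 to 4, against 3.58 and 3.74. For Cdh9 to Cdh18 the ratio was 0.50 to 1.02 in L-fucose, and aCSF 6, at 1.01, lay inside that range, while aCSF 5 was at 1.74. The Cdh6 to Cdh10 ratio was 0.53 to 0.82 in L-fucose and 0.61 to 0.81 over all 6 aCSF libraries, with aCSF 5 and 6 inside the range of the others. The part of the mitochondrial share and of the number of detected rows in these values was not tested.

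**Figure D4:**
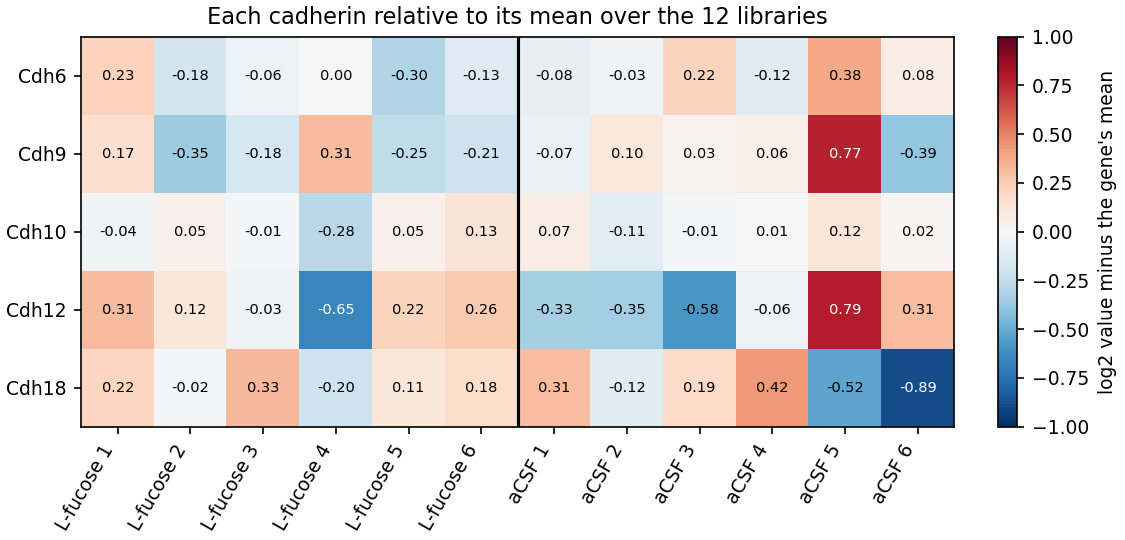
Log2 value of each cadherin in each library minus that gene's mean over the 12 libraries, with L-fucose left of the line and aCSF right of it. Cdh12 is at 0.79 and 0.31 in aCSF 5 and 6, Cdh18 is at -0.52 and -0.89 there, and Cdh10 stays between -0.28 and 0.13 in all libraries.

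Correlations between members over the 12 libraries, on log2(value + 1), were computed for 10 pairs, and 0 passed at an adjusted threshold of 0.05 (permutation test with 100000 resamples). Cdh6 and Cdh9 had the highest, with Pearson r = 0.69 (permutation p = 0.0125, adjusted 0.0815) and Spearman rho = 0.62 (permutation p = 0.0370, adjusted 0.370). Without aCSF 5 and L-fucose 1, the libraries farthest from the Cdh6 median, r was 0.33. Leaving out the farthest values also narrows the range, so this cannot show whether the relation rested on them. Without L-fucose 1 alone r was 0.69, and without aCSF 5 alone 0.45. Without aCSF 6 alone r was 0.80 (permutation p = 0.00240, adjusted 0.0240). It was 0.64 without aCSF 5 and 6, 0.75 within L-fucose and 0.61 within aCSF. Cdh10 and Cdh12 had r = 0.67 (permutation p = 0.0163, adjusted 0.0815) and rho = 0.52 (permutation p = 0.0891, adjusted 0.445), and r = 0.42 without L-fucose 4 and aCSF 2. This pair had r = 0.62 without aCSF 5 and 6, 0.88 within L-fucose and 0.63 within aCSF.

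Cdh9 and Cdh10 had r = -0.21 over all libraries (permutation p = 0.477, adjusted 0.854; rho = -0.39, permutation p = 0.210, adjusted 0.701). Without aCSF 5 and 6, which are also the libraries farthest from the Cdh9 median, r was -0.80 (permutation p = 0.00257, adjusted 0.0257). Within L-fucose r was -0.86 and within aCSF 0.40. With aCSF 5 and 6 kept and L-fucose 4 left out, where Cdh9 was high and Cdh10 low, it was 0.05, so the value over all libraries depended on which were included. Over all libraries the other 7 pairs had r between -0.39, for Cdh6 and Cdh18, and 0.21, for Cdh6 and Cdh12. Without aCSF 5 and 6 their r ran from -0.57, for Cdh9 and Cdh12, to 0.62, for Cdh10 and Cdh18. The latter pairs had r = 0.10 and 0.06 over all libraries. Cdh12 and Cdh18 had r = -0.35 over all libraries and 0.34 without aCSF 5 and 6. For this pair r was 0.69 within L-fucose and -0.69 within aCSF.

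Sections held with L-fucose were set against those in aCSF alone, to see whether cadherin transcripts differed after 5 hours. No member passed the test, and 3 had negative and 2 positive fold changes. The differences were taken as L-fucose minus aCSF in log2(value + 1), which understates the change of low genes, with limma on 10787 rows and a Benjamini-Hochberg adjustment across them. At an unadjusted p under 0.05 there were 0 of 5 members, against 5.96% of all tested rows, and at an adjusted p under 0.05 there were 0 members and 0% of rows. At the adjusted threshold DESeq2 called 1 row and edgeR 0 of 10771, and neither called a member. DESeq2 was given the 29235 rows with any read, and how many of them it adjusted is not given here. Groups that do not overlap were found for 0 members and for 0.287% of rows. The median fold change of the members was -0.03, and that of all tested rows was 0.01.

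Among the cadherins that bind one another, Cdh6 averaged 568.9 ± 73.5 in L-fucose and 631.0 ± 87.1 in aCSF, given as means ± SD over 6 libraries each. The log2 fold change was -0.15, with a 95% confidence interval of -0.40 to 0.10 (limma adjusted p = 0.888). It was below the aCSF median in 5 of 6 L-fucose libraries, and without aCSF 5 and 6 its fold change was -0.07 (interval -0.33 to 0.19). Cdh9 averaged 211.1 ± 40.5 in L-fucose and 241.4 ± 70.2 in aCSF, and its log2 fold change was -0.17 (interval -0.55 to 0.21; limma adjusted p = 0.918). It was below the aCSF median in 4 of 6 L-fucose libraries, and its fold change was -0.03 without aCSF 5 and -0.12 without aCSF 5 and 6 (interval -0.46 to 0.22). Cdh10 averaged 871.9 ± 80.3 in L-fucose and 889.7 ± 47.3 in aCSF, and its log2 fold change was -0.03 (interval -0.23 to 0.17; limma adjusted p = 0.974). The interval was -0.23 to 0.21 without aCSF 5 and 6.

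In the other binding group, Cdh12 averaged 163.3 ± 34.7 in L-fucose and 159.8 ± 61.3 in aCSF, and its log2 fold change was 0.08 (interval -0.40 to 0.55; limma adjusted p = 0.974). It was above the aCSF median in 5 of 6 L-fucose libraries, and without aCSF 5 and 6 its fold change was 0.37 (interval -0.06 to 0.79). Cdh18 averaged 334.6 ± 42.4 in L-fucose and 303.3 ± 97.9 in aCSF, and its log2 fold change was 0.20 (interval -0.20 to 0.60; limma adjusted p = 0.903). Without aCSF 5 and 6, its lowest libraries, the fold change was -0.10 (interval -0.40 to 0.21). With all 12 libraries the intervals of the 5 members ran from -0.55 at the lowest to 0.60 at the highest, so none of them reached 1 log2 unit in either direction. Summed over the 5 genes, counts were 2150 ± 135 in L-fucose and 2225 ± 198 in aCSF.

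**Figure D5:**
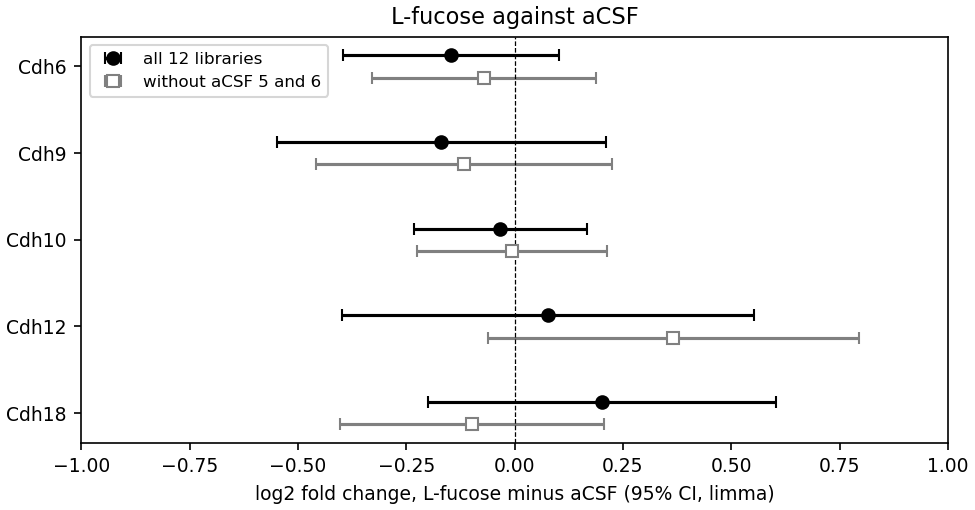
Log2 fold change of each cadherin, L-fucose minus aCSF, with its 95% confidence interval from limma, over all 12 libraries (black) and without aCSF 5 and 6 (grey, open squares). Every interval includes 0, and the largest shifts between both sets are those of Cdh12, at 0.08 and 0.37, and Cdh18, at 0.20 and -0.10.

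Most partners of the cadherins could not be read by name. Of 7 other type II and 5 type I cadherins, 0 were in register, and of 9 catenins 1 was. That was Ctnnd2, the neuronal delta-catenin that binds the cadherin tail next to the membrane, which lies on chromosome 15 as well. It averaged 7440 ± 484 in L-fucose and 7678 ± 517 in aCSF, and its log2 fold change was -0.05 (interval -0.21 to 0.12; limma adjusted p = 0.952), or -0.01 without aCSF 5 and 6. Per kb of annotated exons it had 732.7 normalized reads over the 12 libraries, above each of the 5 cadherins.

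A list of 15 adhesion, cytoskeleton and synapse genes was wholly in register. With limma, 0 of these passed in either direction, 2 had positive and 13 negative fold changes, and the median was -0.11, against -0.05 over the 457 tested rows in register. Unadjusted p was under 0.05 for 2 of the 15, against 5.96% of all tested rows. These were Ptprz1, a receptor phosphatase of glia, at -0.30, and the actin-binding protein Rai14 at -0.46 (limma adjusted p = 0.827 for both). The list was chosen with earlier results of these data known, so its count cannot show an excess. Trio, an exchange factor for small GTPases that act on actin, was at -0.12, Sdc2, a heparan sulfate proteoglycan, at -0.11 and Matn2, a matrix protein, at -0.26. Cttnbp2 and Ppp1r9a, which act on the cytoskeleton of dendritic spines, were at -0.07 and 0.00, and Myo10, the motor of filopodia, at -0.05. The axon guidance genes Sema5a and Epha7 were at -0.16 and -0.06, the growth cone protein Basp1 at 0.03, the receptor Met at -0.27 and the caveolins Cav1 and Cav2 at -0.01 and -0.22. Without aCSF 5 and 6 the fold changes of Sema5a, Epha7 and Cav1 turned positive, at 0.04, 0.02 and 0.04, and Ppp1r9a and Basp1 were at 0.10 and 0.06. Cav2 was then nearer 0, at -0.05, as were Sdc2 (-0.05), Ptprz1 (-0.21), Trio (-0.09), Matn2 (-0.22), Rai14 (-0.43) and Cttnbp2 (-0.06), while Myo10 (-0.18) and Met (-0.31) were farther from it.

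Markers of brain regions and cell types were set beside the cadherins. Penk and Tac1 of the striatum summed to between 7579 and 13897 in L-fucose and between 4045 and 10700 in aCSF, with 9150 and 10700 in aCSF 5 and 6. Foxp2 of deep cortical layers was 592.9 to 1008 in L-fucose and 428.1 to 996.0 in aCSF, with 990.6 and 996.0 in aCSF 5 and 6. Spef2 and Cfap206 of ciliated cells summed to between 86.0 and 183.4 in L-fucose and between 164.0 and 303.9 in aCSF. This sum was 256.9 in aCSF 5 and 164.0 in aCSF 6. The interneuron genes Dlx5, Dlx6 and Cnr1 summed to between 2254 and 2663 in L-fucose and between 2348 and 2823 in aCSF. In aCSF 5 and 6 the sum was 2715 and 2823. Most of it was Cnr1, which averaged 2065 over the 12 libraries, against 171.0 for Dlx5 and 285.0 for Dlx6. The log2 fold changes of Dlx5 and Dlx6 were 0.30 and 0.24, and that of Cnr1 was -0.13. Without aCSF 5 and 6 they were 0.51, 0.38 and -0.09. The calbindin neuron genes Calb1 and Car8 summed to between 4196 and 5508 in L-fucose and between 4403 and 5667 in aCSF. Their sum was 5667 in aCSF 5 and 5040 in aCSF 6. Prlr of choroid plexus was 104.4 to 374.0 in L-fucose and 169.2 to 581.9 in aCSF, and Col1a2 of fibroblasts was 527.2 to 662.8 in L-fucose and 380.8 to 669.7 in aCSF. In aCSF 5 and 6 Prlr was 188.5 and 318.1, and Col1a2 was 381.4 and 614.2. Ptprz1 of glia was 4603 to 5845 in L-fucose and 5176 to 7468 in aCSF, with 7468 and 6495 in aCSF 5 and 6. No marker passed the adjusted test, and 4 of the 15 markers had an unadjusted limma p under 0.05, against 5.96% of all tested rows. They were Penk (0.61), Ptprz1 (-0.30), Spef2 (-1.30) and Cfap206 (-0.76), which without aCSF 5 and 6 were at 0.88, -0.21, -1.47 and -0.80. The marker lists were chosen with earlier results of these data known, so this count cannot show an excess among markers. None of these lists was at 0, and their part in the cadherin values was not tested.

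For each member, the genes with the most similar pattern over the 12 libraries were sought among 377 other tested genes in register, leaving out predicted gene models. They are given as descriptions, since libraries that stand apart are common to all of them. Ppp1r9a was the most alike for Cdh12, at r = 0.89 with all libraries and 0.88 without aCSF 5 and 6, and for Cdh10, at 0.78 and 0.81. St7 and Cul2 were the most alike for Cdh6, at 0.90 and 0.84, and at 0.86 and 0.74 without these libraries. For Cdh9 they were Matn2 and Otulinl, at 0.77 and 0.76, which were 0.47 and 0.50 without aCSF 5 and 6. For Cdh18 they were Fezf1 and Faxc, at 0.82 and 0.80, which were 0.37 and 0.52 without them. The second for Cdh10 was March6, at 0.67 and 0.70 without them, and for Cdh12 Umad1, at 0.76 and 0.58.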

How the data were processed

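Per the labels' protocols, libraries were made from messenger RNA selected by its poly-A tail. The build is mm10, and the tools named in the submitters' processing notes are featureCounts 2.0.3, HISAT2 2.2.1, Trimmomatic 0.39 and DESeq2 2.11.40.8. The deposited values are a normalized signal. Dividing a library's values by its smallest step gave whole reads for 100% of them, to within 0.01 reads. Identifiers were matched to GENCODE M21 on GRCm38, the same assembly as mm10.

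Rows were called in register from windows of 80 rows moved by 20, displaced by up to 600 kb in steps of 500 bases, where every window fitted best within 1000 bases of no displacement over at least 120 rows. This gave 5 regions with 1400 rows.

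The filter kept 10787 rows that reached 10 in 6 or more libraries, all 5 cadherins among them. On log2(value + 1), limma 3.58.1 with an intensity trend gave two-sided p-values, judged at 0.05, and was tested on simulated data. The simulated libraries were independent, of equal depth and with the same dispersion for all genes, and their changes were larger than those of the cadherins. They cannot show how the test fares with libraries like aCSF 5 and 6 or with small changes. Alternatives used edgeR 4.0.16, DESeq2 1.42.0, sva 3.50.0 and R 4.3.3, and coding sequences were aligned with Biopython 1.88. Named genes were every cadherin of the set, the members in register of the lists, and the 2 genes most like each member. The members and lists were chosen with earlier results of these data known.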

Additional observations from a re-analysis of the deposited data

Results flagged for a closer look

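In 5 of 56 groups of 6 values, over the cadherins, their sum, the adhesion list, the catenin in register and the most alike genes, 1 library lay far outside the rest. About 5% of groups do so by chance. Cdh9 was 375.8 in aCSF 5, against 168.9 to 237.4 in the other aCSF libraries, and its log2 fold change without aCSF 5 was -0.03. Cul2 was 2367 in the same library, against 1550 to 1817. Ctnnd2 was 6673 in aCSF 1, against 7624 to 8120 in the other aCSF libraries. In L-fucose 6, Ptprz1 was 5845, and the rest of that group lay at 4603 to 5025. In L-fucose 4, Faxc was 139.1, and the rest lay at 320.8 to 385.0.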

How the results depend on the processing

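No member passed an adjusted threshold under any of 26 alternatives. Leaving out 1 library at a time gave log2 fold changes of -0.21 to -0.09 for Cdh6, -0.26 to -0.03 for Cdh9, -0.061 to 0.019 for Cdh10 (positive without L-fucose 4), -0.033 to 0.24 for Cdh12 (negative without aCSF 3) and 0.05 to 0.31 for Cdh18. Without aCSF 5 and 6 Cdh18 was at -0.10. The count of rows past the threshold was 0 in each setting except DESeq2, with 1. A block for the replicate number gave -0.15, -0.17, -0.03, 0.08 and 0.20 in limma for Cdh6, Cdh9, Cdh10, Cdh12 and Cdh18 and changed no call. Libraries with the same number did not deviate together, with correlations of -0.17 to 0.17.

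In the level order, Cdh18 over Cdh6 was 0.63 on the log2 scale with the longest transcript, 0.23 without aCSF 5 and 6, and with coding length it was -0.94, all 3 past the threshold. In aCSF alone it was -0.13, not past it. Cdh6 over Cdh9 passed with the longest transcript (0.22) and coding length (1.43). With 6 libraries the smallest p is 0.03125, and Cdh10 over Cdh18 (0.24 in L-fucose, 0.48 in aCSF) and Cdh9 over Cdh12 (1.22 and 1.46) no longer passed. After adjustment over 4 pairs, a pair at that smallest p need not pass. Cdh9 over Cdh12 held in 6 of 6 libraries of each group, with adjusted exact permutation p of 0.0625 in L-fucose and 0.125 in aCSF. Not passing within a group therefore cannot show that the order depended on the group. The number of correlated pairs was 1 without aCSF 5 and 6 and without the 2 farthest libraries, and 0 to 1 leaving out 1 library. The correlation of Cdh9 and Cdh10 was 0.40 within aCSF and -0.75 to 0.054 leaving out 1 library. The causes were not tested. Cdh12 had the fewest reads of the 5, 84 to 277 per library.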
